A study of Rattus norvegicus with 4 samples.

Results

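The 10 genes described here take iron into the cell, store it, release it, export it or sense it. They were chosen by symbol from the deposited table of 32883 genes, and all 10 had 1 row each: Tfrc, Slc11a2 and Slc39a14 (uptake), Fth1, Ftl1 and Ncoa4 (storage and its turnover), Slc40a1 (export), Hmox1 (release from heme), and Aco1 and Ireb2 (sensing). The other loci annotated as ferritin light chain, 5 in all with Ftl1, were read beside Ftl1. RNA was sequenced from HSC-T6, 1 immortalised line derived from rat hepatic stellate cells, the liver cells that make collagen in fibrosis. Of the 4 libraries 2 are from untreated cells and 2 from cells given GRK1, which the series title spells out as ginsenoside RK1, a ginseng saponin (Rk1 here). All libraries share the line and carry no genetic change named in the labels, and no dose, duration or vehicle is given. The series title names ferroptosis, an iron-dependent form of cell death, as the subject of the study.

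Iron bound to transferrin enters through the transferrin receptor and leaves the endosome through DMT1, while ZIP14 also carries iron that is not bound to transferrin. Surplus iron is held in a ferritin shell of heavy and light chains, NCOA4 brings that shell to the lysosome for breakdown, and ferroportin is the exporter. When iron is scarce, the iron regulatory proteins IRP1 and IRP2 bind hairpins called iron-responsive elements, which blocks the translation of ferritin and protects the transferrin receptor transcript. Much of this control acts on translation and on protein stability, which RNA counts do not show.

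Total counts ranged from 18008586 to 20430930 per library, and 12316 genes were abundant enough to be tested. Values are CPM, a gene's counts per 1000000 counts of its library after TMM scaling, and n = 2 libraries in every group. Whether the 2 libraries of a condition stem from separate cultures is not said, and p-values therefore rest on a spread that may be purely technical. Collagen Col1a1 was abundant (at least 144887 counts in every library), and the summed level of 10 stellate and myofibroblast markers was 20210 to 21260 CPM untreated and 13790 to 13850 CPM with Rk1. Most of that sum was Col1a1 (means 12050 CPM untreated and 8017 CPM with Rk1) and Col3a1 (4845 and 2627 CPM). The markers did not all fall alike. The steepest falls were those of Acta2 (means 3.34 and 0.610 CPM), Gfap (3.48 and 0.941 CPM) and Lum (15.96 and 6.19 CPM). EdgeR called each of them lower, Acta2 and Gfap on few reads, and it called Timp1 lower as well. Vim was at 1276 and 1206 CPM. Des lay higher with Rk1 (5.46 and 7.05 CPM), a difference that edgeR did not call (adjusted p = 0.13). The retinoid enzyme gene Lrat, which marks quiescent stellate cells, had 0 counts. None of 7 hepatocyte markers exceeded 3 counts in every library, and the macrophage markers Ptprc, Adgre1, Marco and Cd163 were at 0 in all of them. Summed levels were 1.13 to 1.70 CPM untreated and 1.65 to 1.95 CPM with Rk1 for 7 macrophage markers, and 1.68 to 1.76 against 1.34 to 1.70 CPM for 5 endothelial ones. For 5 cholangiocyte markers they were 7.49 to 9.18 against 2.74 to 2.95 CPM, mostly Sox9, and for 5 erythroid markers 0.880 to 1.08 against 0.384 to 0.612 CPM, with Hbb and Alas2 at 0. The part of these differences in the results was not tested. All libraries are of the same cell line, so these markers do not measure shares of different liver cell types. In a bulk library, less of a transcript per cell and fewer cells with that transcript cannot be told apart.

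The ferritin light chain and heme oxygenase transcripts rose about 2-fold with Rk1, and the ferritin heavy chain transcript rose 1.10-fold. Of the 10 genes 9 were tested, and 6 rose at a Benjamini-Hochberg adjusted p under 0.05 in edgeR's quasi-likelihood test: Hmox1, Ftl1, Tfrc, Slc39a14, Aco1 and Fth1. None of the 9 fell by edgeR, DESeq2 or limma-voom, and 0 were lower at an unadjusted p under 0.05. Slc11a2, Ncoa4 and Ireb2 did not pass. Among all genes tested, 22.0% were called, 11.5% higher and 10.5% lower (1422 and 1289 genes). With upper-quartile scaling that balance turned, to 1198 higher and 1556 lower. The median log2 fold change of the 9 was 0.17, against 0.00 over all tested genes. Groups did not overlap in 8 of the 9, but that held for 63.0% of all genes tested. Without untreated replicate 2 only Hmox1, Ftl1 and Tfrc of these genes were called. Without untreated replicate 1 the count was 4, and it was 5 without either Rk1 library.

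**Figure D1:**
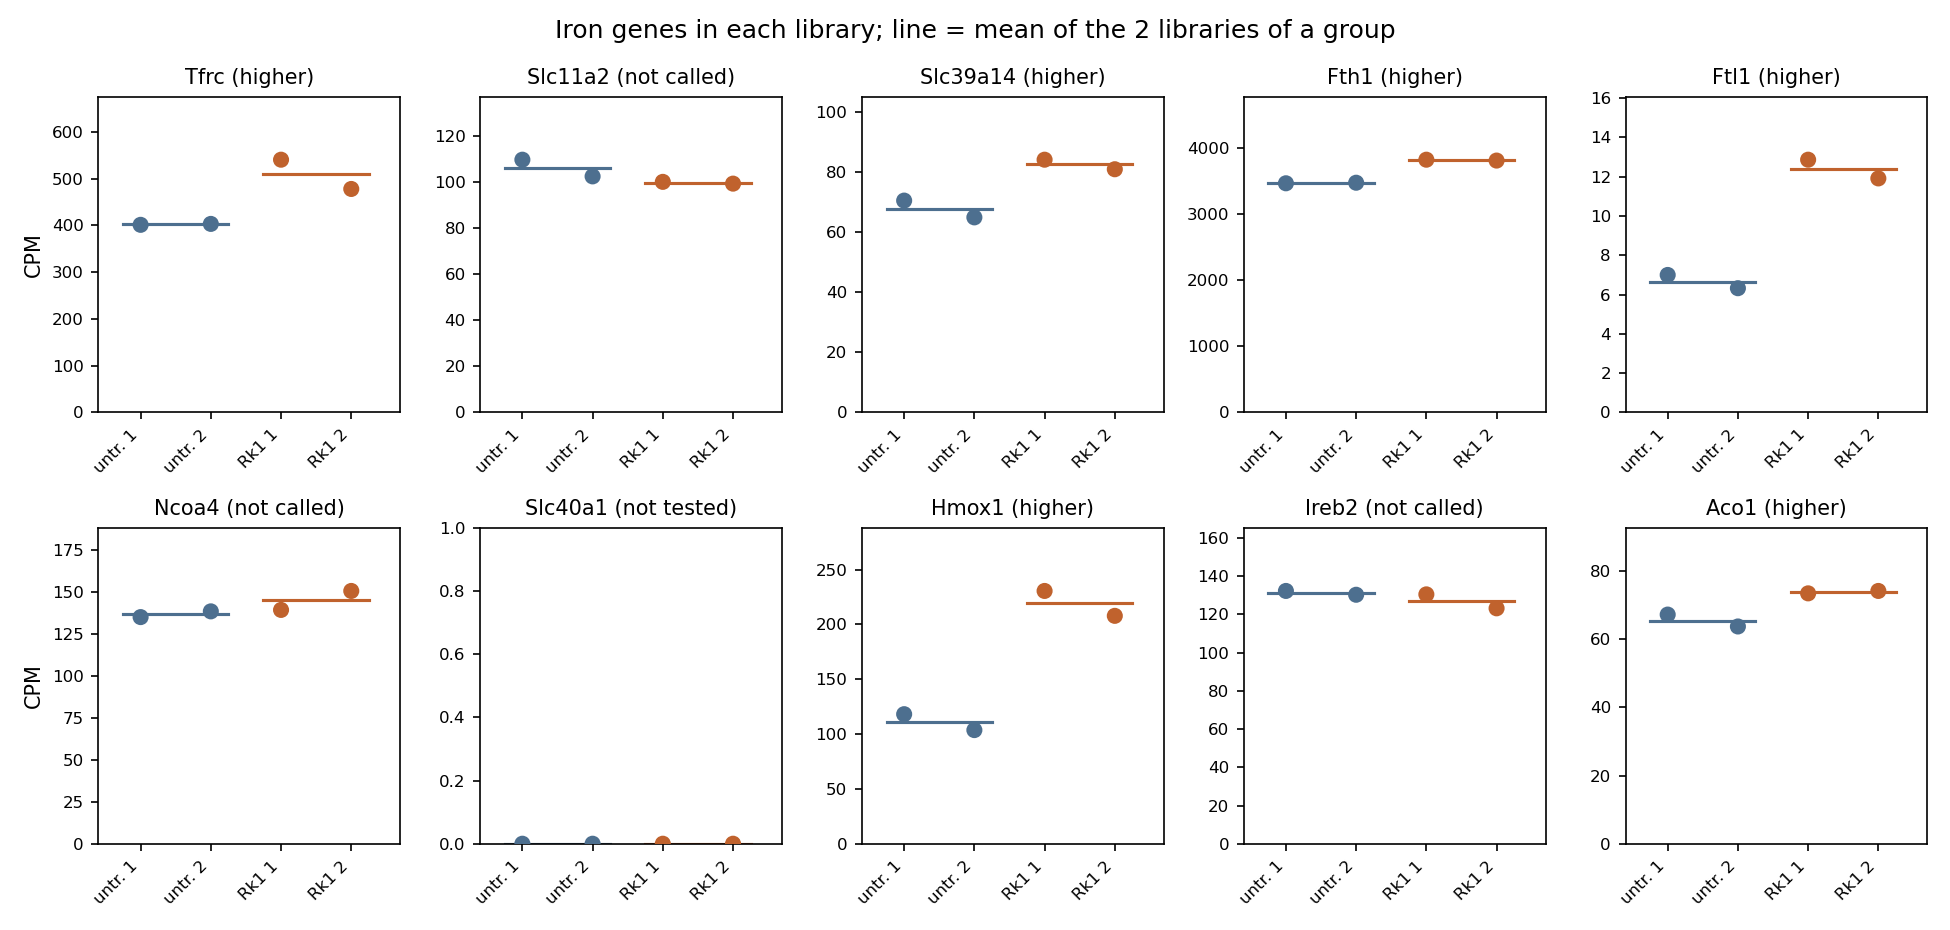
CPM (vertical axes, each from 0) of the 10 iron genes in the untreated (blue) and Rk1 (orange) libraries, 1 point per library, with a line at each group mean and edgeR's call above each panel. Both Rk1 points lie far above both untreated points for Hmox1 and Ftl1, while Slc11a2, Ncoa4 and Ireb2 differ little and Slc40a1 is at 0 in every library.

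Among the uptake genes, the transferrin receptor gene Tfrc (chromosome 11, 71397383 to 71419223, minus strand, Rnor_6.0) was at 401 and 403 CPM in the untreated libraries and at 541 and 478 CPM with Rk1. Both Rk1 libraries were above both untreated ones, and they differed from each other far more than the untreated pair did. Tfrc rose 1.27-fold (log2 fold change 0.34 ± 0.06 SE, adjusted p = 0.0077), and its log2 fold change ranged from 0.25 without Rk1 replicate 1 to 0.43 without Rk1 replicate 2, so its size depends on which Rk1 library is used. Slc39a14 encodes ZIP14, a carrier of iron, zinc and manganese (chromosome 15, 51982982 to 52029816, minus strand). It had 70.5 and 64.9 CPM untreated and 84.1 and 80.9 CPM with Rk1, with no overlap between the groups. Its rise was 1.22-fold (0.28 ± 0.06, adjusted p = 0.012), and without untreated replicate 2 it was not called (0.22, adjusted p = 0.057). Slc11a2 encodes DMT1, the carrier that moves ferrous iron out of endosomes (chromosome 7, 142025815 to 142063212, minus strand). It had 110 and 103 CPM untreated and 100 and 99.4 CPM with Rk1. The Rk1 libraries lay just under the untreated ones, and the difference did not pass (-0.09 ± 0.05, adjusted p = 0.25). Its 95% interval ran from 0.865-fold to 1.02-fold, a range that does not include the size of the change in Tfrc.

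The promoter of Tfrc is shown because Tfrc rose and is a textbook target of the hypoxia-inducible factors, which bind a core of ACGTG or GCGTG. The capitals mark every ACGTG or GCGTG on either strand in the 250 bases before the RefSeq start site (GRCr8, chr11:81690319-81690568, minus strand). A GCGTG on the other strand reads CACGC here.
Tfrc: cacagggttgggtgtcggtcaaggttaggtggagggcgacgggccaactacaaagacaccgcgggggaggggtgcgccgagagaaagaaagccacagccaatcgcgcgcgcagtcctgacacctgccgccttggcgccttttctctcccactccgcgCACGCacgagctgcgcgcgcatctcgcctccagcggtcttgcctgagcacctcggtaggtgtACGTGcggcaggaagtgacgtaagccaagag
For comparison, Ncoa4 did not pass the test, and its last 100 bases before the start site (GRCr8, chr16:7401691-7401790, plus strand) also hold both cores. The capitals there mark those cores and TGACNNNGC, the core of the antioxidant response element, which overlaps the GCGTG by 2 bases.
Ncoa4: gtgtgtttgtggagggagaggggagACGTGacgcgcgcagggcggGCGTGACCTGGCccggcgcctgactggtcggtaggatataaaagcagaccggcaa
RefSeq windows of 300 bases, 250 before and 50 after the start, were matched by symbol for 6 of the 10 genes, and not for Fth1, Ftl1, Hmox1 and Slc39a14. In 4 of the 6 genes (Tfrc, Ncoa4, Aco1 and Slc11a2) a window held ACGTG or GCGTG, as did 41.6% of the 33469 windows of all genes. TGACNNNGC was found in the window of Ncoa4 alone among these genes and in 12.1% of all windows. A match is only a description of the letters, and it stood in genes that rose and in genes that did not pass.

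Transcripts of both ferritin chains rose, and the intervals of their fold changes did not overlap. Fth1, the heavy chain that oxidises iron as it enters the shell (chromosome 1, 226030938 to 226033228, plus strand), had 3461 and 3469 CPM untreated and 3817 and 3804 CPM with Rk1. The libraries of a group differed little from each other for this gene, which ranked 11 of all genes by mean CPM. It rose 1.10-fold (0.14 ± 0.03, adjusted p = 0.016). Without untreated replicate 1 (0.14, adjusted p = 0.12) or untreated replicate 2 (0.13, adjusted p = 0.15) it was not called. Best1 overlaps Fth1 on the opposite strand and had 3813 counts over the 4 libraries. Its means were 51.5 CPM untreated and 50.6 CPM with Rk1, which did not pass. Without a stated strand setting, reads from the stretch that the 2 genes share cannot be told apart.

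The row named Ftl1 held very few of the light chain reads. The light chain helps the iron core to form inside the shell and has no oxidising centre of its own. Ftl1 (chromosome 5, 152325871 to 152326778, plus strand) had 142 and 115 counts untreated and 231 and 217 with Rk1, which is 7.00 and 6.32 CPM against 12.9 and 11.9 CPM. The groups did not overlap, and it rose 1.86-fold (0.89 ± 0.12, adjusted p = 0.0023). It made up 1.20% to 1.38% of all counts at ferritin light chain loci in any library. The row named LOC100360087, described as ferritin light chain 1-like (chromosome 1, 101448346 to 101449829, minus strand), held 81.1% to 82.5% of them.

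These symbols stand on other loci in RefSeq. In the deposited table LOC100360087 lies between Gys1 and Bax on chromosome 1 and Ftl1 lies between Cd52 and Ubxn11 on chromosome 5. In RefSeq's GRCr8 annotation it is Ftl1 that lies between Gys1 and Bax, and LOC100360087 lies between Cd52 and Ubxn11. The exons of the chromosome 1 locus sum to 552 bases within a span of 1484, so this locus has introns. The chromosome 5 locus has an exon length of 908 within a span of 908, and the loci on chromosomes 6 and 13 also have exon lengths equal to their spans, so none of these 3 has an intron. RefSeq lists 24 ferritin light chain genes in GRCr8, 15 of them pseudogenes. Among the loci with counts, listed exon lengths ran from 552 to 908 bases, and reads outside a listed exon would not have been counted there. Near-identical copies can also divide or lose reads, so each locus is uncertain by itself.

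All 4 light chain loci with counts rose, between 1.86-fold and 2.14-fold. LOC100360087 went from 414 and 380 CPM untreated to 876 and 803 CPM with Rk1, a 2.11-fold rise (1.08 ± 0.06, adjusted p = 6.3e-05). LOC100359668, named ferritin light chain 2 in the table (chromosome 6, 76652206 to 76652757, minus strand), went from 51.9 and 46.5 to 106 and 105 CPM (1.10 ± 0.06, adjusted p = 6.0e-05). LOC100362384 (chromosome 13, 89253617 to 89254171, plus strand) went from 34.6 and 31.3 to 66.2 and 70.6 CPM (1.05 ± 0.07, adjusted p = 1.0e-04). In each of these loci both Rk1 libraries were above both untreated ones. The remaining locus, RGD1561661 on chromosome X, had 0 counts in every library. The shares of the loci barely moved: LOC100359668 held 10.02% to 10.6% and LOC100362384 6.24% to 7.13% of light chain counts in the 4 libraries. With the counts of all loci added into 1 row before the fit, the light chain had 507 and 464 CPM untreated and 1062 and 990 CPM with Rk1. That sum rose 2.11-fold (1.08 ± 0.06, adjusted p = 5.2e-05), with a 95% interval of 1.93-fold to 2.32-fold, which lies wholly above the interval of Fth1, 1.05-fold to 1.15-fold.

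The count ratio of Fth1 to the summed light chain stood at 6.82 and 7.47 without Rk1 and at 3.595 and 3.84 with it. Both Rk1 ratios lay well below both untreated ones. Both genes come from the same library, so its depth and scaling cancel in this ratio. It is given as a description, with no test.

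**Figure D2:**
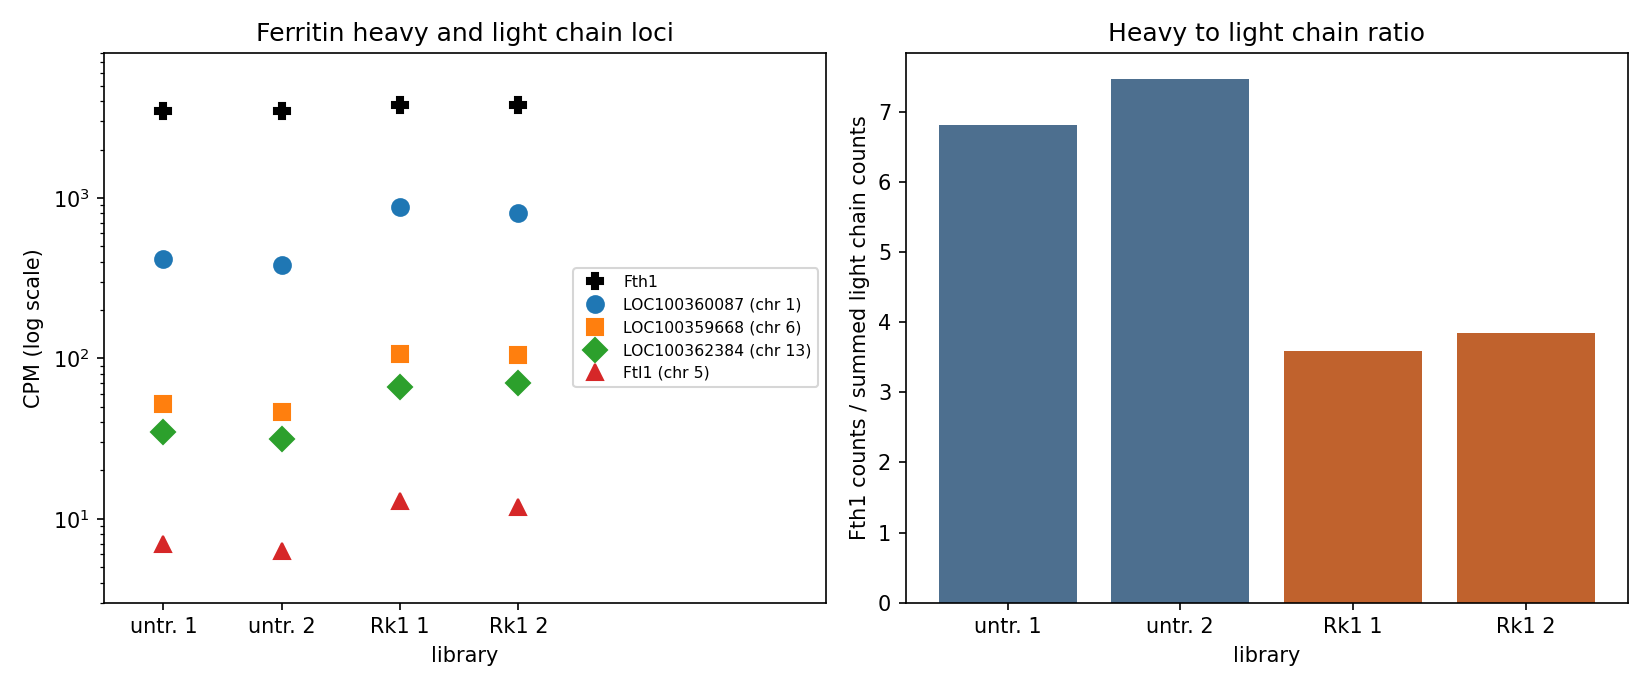
Left, CPM on a log axis for Fth1 and the 4 ferritin light chain loci with counts, by library. Right, Fth1 counts divided by summed light chain counts in each library (blue untreated, orange Rk1), where the ratio is 6.82 and 7.47 untreated and 3.595 and 3.84 with Rk1. Every light chain locus sits about 2-fold higher with Rk1, and Fth1 only 1.10-fold.

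The last bases of the RefSeq window of LOC100360087 (GRCr8, chr5:151606522-151606545, plus strand), which by its neighbours is the row named Ftl1 in the table, are shown because they carry the letters of the iron-responsive element. The capitals mark the unpaired C of that hairpin and, after 5 bases, its CAGTG loop.
LOC100360087: gatctgtatcttgCTTCAACAGTG
The motif as first written needs 1 more base than the window holds, and its last letter was dropped after the sequence was seen. The shortened motif stands in 9.58% of all windows on the sense strand, counted at any position, so a match by letters alone is common. Most of each window lies before the start site, outside the transcript, whereas the match shown lies after the start site. In its longer form the motif was found in the window of none of the 6 genes that have one. The hairpin acts in the transcript, and these windows hold little of it. This absence therefore cannot show whether those genes carry the element. TGACNNNGC was matched in the windows of both other light chain loci that have one, and in 12.1% of all windows. The chromosome 1 locus, which held most of the light chain counts, had no window. The TGACNNNGC match stood 203 bases before the start site of LOC100362384 on chromosome 13 and 127 bases before that of Ftl1l2, RefSeq's name for the chromosome 6 locus. The window of Ftl1l2 also held ACGTG and GCGTG.

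Ncoa4, the receptor that delivers ferritin to autophagosomes (chromosome 16, 8302950 to 8323293, plus strand), was at 135 and 138 CPM untreated and at 139 and 150 CPM with Rk1. The groups nearly met, and the difference did not pass (0.08 ± 0.05, adjusted p = 0.29, interval 0.974-fold to 1.15-fold). Slc40a1, which encodes ferroportin (chromosome 9, 52820683 to 52830457, minus strand), had 0 counts in all 4 libraries. A count of 0 allows up to 3 counts, or 0.148 to 0.167 CPM depending on the library, and below that level no difference could have been seen. The table gives Slc40a1 an exon length of 1443 bases, and reads outside that model would not have been counted.

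Hmox1, which encodes the inducible heme oxygenase that frees iron from heme (chromosome 19, 14508616 to 14515456, plus strand), had 118 and 104 CPM untreated and 231 and 208 CPM with Rk1. Every Rk1 value was well above every untreated one, and the spread within each group was small beside the gap. It rose 1.97-fold (0.98 ± 0.08, adjusted p = 2.2e-04), and it was called whichever library was left out (0.88 to 1.08). Its log2 fold change was above that of 98.9% of the genes tested. The constitutive isoform Hmox2, a listed neighbour in the pathway, averaged 46.9 CPM untreated and 51.6 CPM with Rk1, which did not pass (adjusted p = 0.15).

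Differences in the sensors were small. Aco1 encodes IRP1, which is a cytosolic aconitase when it carries an iron-sulfur cluster and an RNA-binding protein when it does not (chromosome 5, 56425024 to 56481218, plus strand). It had 67.2 and 63.7 CPM untreated and 73.4 and 74.1 CPM with Rk1, without overlap. The 1.13-fold rise (0.17 ± 0.05, adjusted p = 0.045) sat at the edge of the threshold. Dropping any 1 of the 4 libraries ended the call (0.13 to 0.21, adjusted p = 0.060 to 0.23). Nor was it called by DESeq2 (adjusted p = 0.26), limma-voom (0.051), RLE or upper-quartile scaling (0.052 and 0.078), or either other count filter (0.0503 and 0.0558). Ireb2 encodes IRP2, which is degraded when iron is plentiful (chromosome 8, 59420123 to 59501118, plus strand). Its libraries overlapped between groups, at 132 and 130 CPM untreated and 131 and 123 CPM with Rk1 (-0.05 ± 0.05, adjusted p = 0.50, interval 0.894-fold to 1.04-fold). The count ratio of Aco1 to Ireb2 was 0.508 and 0.489 untreated and 0.563 and 0.602 with Rk1. The ratio of Tfrc to Fth1, which both rose, was 0.116 in both untreated libraries and 0.142 and 0.126 with Rk1. IRPs act on the translation of ferritin, which this ratio does not show. Neither this ratio nor that of Aco1 to Ireb2 overlapped between the groups, and neither was tested.

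**Figure D3:**
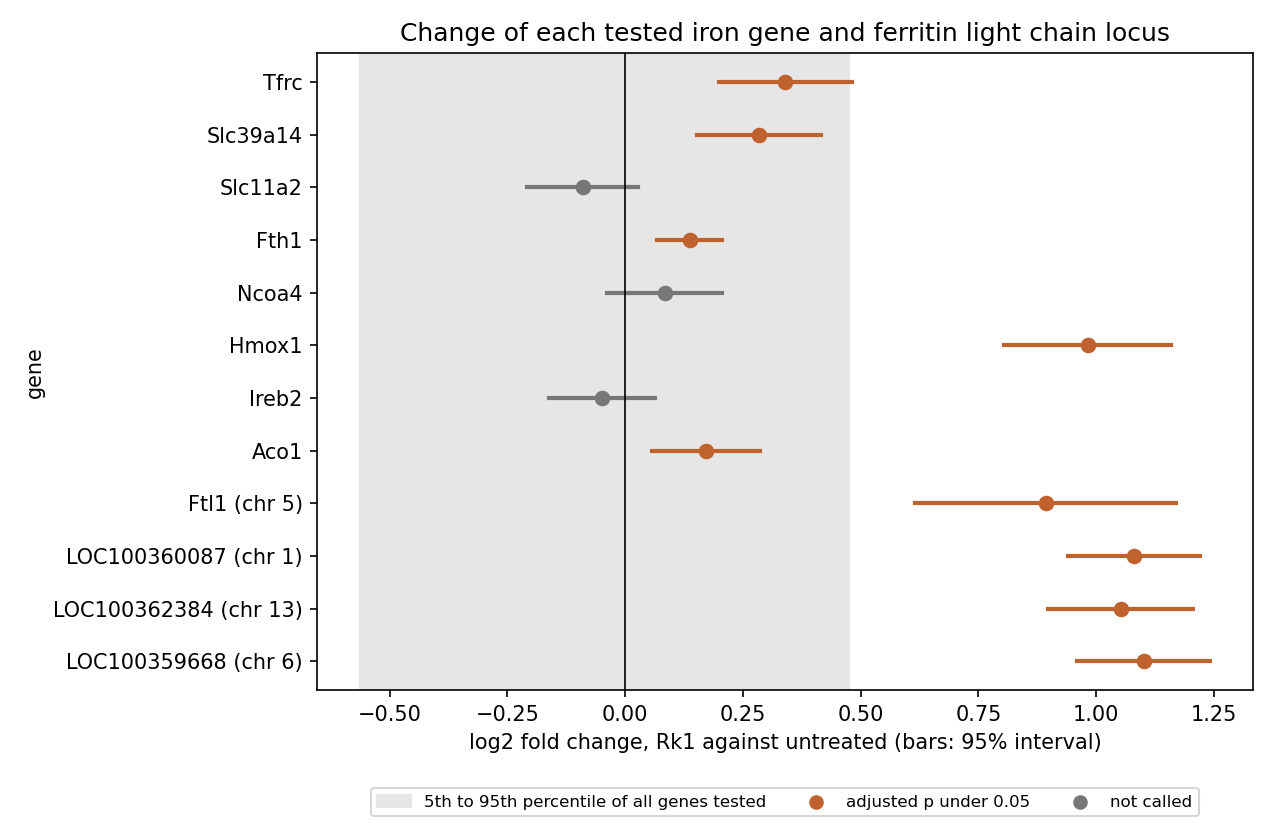
Log2 fold change of Rk1 against untreated with its 95% interval for the 9 tested iron genes and the 3 other ferritin light chain loci, orange where the adjusted p was under 0.05. Grey shading spans the 5th to 95th percentile of all tested genes (-0.56 to 0.47), and Hmox1 and the light chain loci lie to its right, whereas the point estimates of all other genes shown lie inside it.

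Levels between genes were compared as CPM per kilobase of listed exon. In the untreated libraries Fth1 led by far (mean 4174), followed by Tfrc (84.0), Hmox1 (70.8), Ireb2 (41.1), Ncoa4 (39.98), Slc11a2 (24.6), Aco1 (18.9), Slc39a14 (14.3) and the row named Ftl1 (7.33). The chromosome 1 light chain locus reached 719, counted on a listed exon length of 552 bases, so it and not the Ftl1 row stood next to Fth1. Ireb2 and Ncoa4 were the closest neighbours, at 41.4 and 40.8 against 39.5 and 40.5 (SDs 0.438 and 0.707), so the highest Ncoa4 library lay just under the lowest Ireb2 library. With Rk1 the order of these 2 turned, with Ncoa4 at 40.7 and 44.0 and Ireb2 at 40.9 and 38.6, values that overlap. Hmox1 moved above Tfrc, at 147 and 133 against 113 and 99.8 CPM per kilobase.

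In the wider set of iron and heme genes, changes in both directions were found, with more rises than falls. The set comprised 93 table rows in 8 lists, of which 77 were tested. Of these, 14 rose and 2 fell, 20.8% in all against 22.0% of all genes tested. The share called in either direction was therefore near the background. The directions were uneven here, whereas among all genes tested 11.5% were higher and 10.5% lower. Their median log2 fold change was 0.06. Within single lists the share called ran from 0.0% to 33.3%, on small numbers of genes (3 to 20 tested). The count was 9 without untreated replicate 2, 10 without Rk1 replicate 2, 11 without Rk1 replicate 1 and 13 without untreated replicate 1. DESeq2 called 11 of them, and Mcoln1 (adjusted p = 0.23), Isca2 (0.17), Prom2 (0.12), Steap1 (0.11) and Cdc42bpa (0.073) were not among these.

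Of 13 tested genes of the transferrin cycle and other uptake, 4 rose and 0 fell by edgeR (0 fell by DESeq2 or limma-voom, 1 was lower at an unadjusted p under 0.05). The share called by edgeR was 30.8%, against 22.0% of all genes tested, and DESeq2 called 2 of this list. The 4 by edgeR were Exoc6, an exocyst subunit needed for transferrin recycling (0.42 ± 0.08, adjusted p = 0.0084), Steap1 (0.37 ± 0.08, 0.016), the metalloreductase Steap2 (0.24 ± 0.05, 0.016) and Mcoln1, a lysosomal cation channel that passes iron (0.23 ± 0.06, 0.033). Exoc6 was called whichever library was left out. Steap1 was called only without untreated replicate 2, Mcoln1 only without Rk1 replicate 1, and Steap2 was lost without Rk1 replicate 1 or untreated replicate 1 (highest adjusted p = 0.086, 0.15 and 0.079). Steap3, the endosomal reductase that works with DMT1, was at means of 23.3 and 26.7 CPM (adjusted p = 0.088). Among 7 tested chaperone and export genes, the ferroxidase ceruloplasmin gene Cp fell from 89.3 to 70.4 CPM (-0.34 ± 0.06, adjusted p = 0.0058), and was called whichever library was left out. Prom2, linked to the export of ferritin in vesicles, rose on very few reads, 4 and 1 counts against 14 and 14 (adjusted p = 0.021), and was called only without untreated replicate 1 (highest adjusted p = 0.11). The cytosolic iron chaperone genes Pcbp1 and Pcbp2 and the glutaredoxin gene Glrx3 did not pass (0.00, -0.02 and -0.15). The share of chaperone and export genes called was 28.6%, against 22.0% of all genes tested.

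Of the 20 tested genes of mitochondrial iron import and iron-sulfur cluster assembly, 4 rose and 1 fell. These 5 of 20 are a share close to the 22.0% called among all genes tested. All 3 genes of the CDGSH family, which bind iron-sulfur clusters in or on mitochondria and the endoplasmic reticulum, rose: Cisd3 (0.36 ± 0.05, adjusted p = 0.0025), Cisd1 (0.35 ± 0.05, 0.0043) and Cisd2 (0.24 ± 0.05, 0.012). The CDGSH family was not tested as a group. Isca2, an assembly factor, rose by 0.30 ± 0.08 (adjusted p = 0.038). The iron importer gene Slc25a28 (mitoferrin 2) fell from 97.4 to 79.9 CPM (-0.29 ± 0.05, adjusted p = 0.0088). Cisd2 was not called without untreated replicate 2 (adjusted p = 0.069), and Isca2 was called only without untreated replicate 1 (highest adjusted p = 0.18), while Cisd1, Cisd3 and Slc25a28 were called whichever library was left out.

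None of 12 tested heme synthesis genes was called by edgeR, DESeq2 or limma-voom, and 3 had an unadjusted p under 0.05 in edgeR's test. That share of 0.0% stands beside 22.0% of all genes tested. The smallest adjusted p values were those of Alas1, the first enzyme of the pathway (0.071), Abcb6 (0.085) and Abcb10 (0.11). Of 11 heme uptake, export and breakdown genes, 3 rose and 0 fell by edgeR (3 were called and 0 fell by DESeq2 or limma-voom, 1 lower at an unadjusted p under 0.05). The share called by edgeR was 27.3%, against 22.0% of all genes tested. Bach1, a heme-binding repressor of Hmox1 and of ferritin genes, rose from 21.0 to 32.1 CPM (0.61 ± 0.07, adjusted p = 0.0010). Pgrmc1, a heme-binding membrane protein gene, rose by 0.29 ± 0.05 (0.0084), and Lrp1, a receptor that takes up the heme-hemopexin complex among many ligands, by 0.21 ± 0.04 (0.012). Bach1 and Pgrmc1 were called whichever library was left out, and Lrp1 was lost without untreated replicate 2 (adjusted p = 0.11). Blvra and Blvrb, which reduce the biliverdin made by heme oxygenase, did not pass (-0.14 and 0.02).

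Of 7 genes of iron sensing and ferritin turnover, only Herc2, a ubiquitin ligase that acts on NCOA4, rose (0.25 ± 0.05, adjusted p = 0.016), and it was lost without Rk1 replicate 2 or untreated replicate 2 (highest adjusted p = 0.064). The share called in this list was 14.3%, against 22.0% of all genes tested. Fbxl5, the iron-sensing subunit of the ligase that removes IRP2, was at 127 and 135 CPM (adjusted p = 0.29). Cul1, the scaffold of that ligase, did not pass (0.13, adjusted p = 0.070). Of the 4 tested genes of hepcidin and its control, 0 were called by edgeR, DESeq2 or limma-voom and 2 had an unadjusted p under 0.05, with Erfe at 17.8 and 14.5 CPM (adjusted p = 0.070), Neo1 at 126 and 138 CPM (0.074) and Bmp2 at 42.1 and 39.98 CPM (0.36). The share called in the hepcidin list, 0.0% against 22.0% of all genes tested, rests on only 4 genes. Hepcidin itself, Hamp, had 1 count in 1 library. Among other transcripts with a known iron-responsive element, Cdc42bpa rose by 0.18 ± 0.04 (adjusted p = 0.023) but lost its call without each library in turn (highest adjusted p = 0.11), and Cdc14a (-0.20) did not pass.

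**Figure D4:**
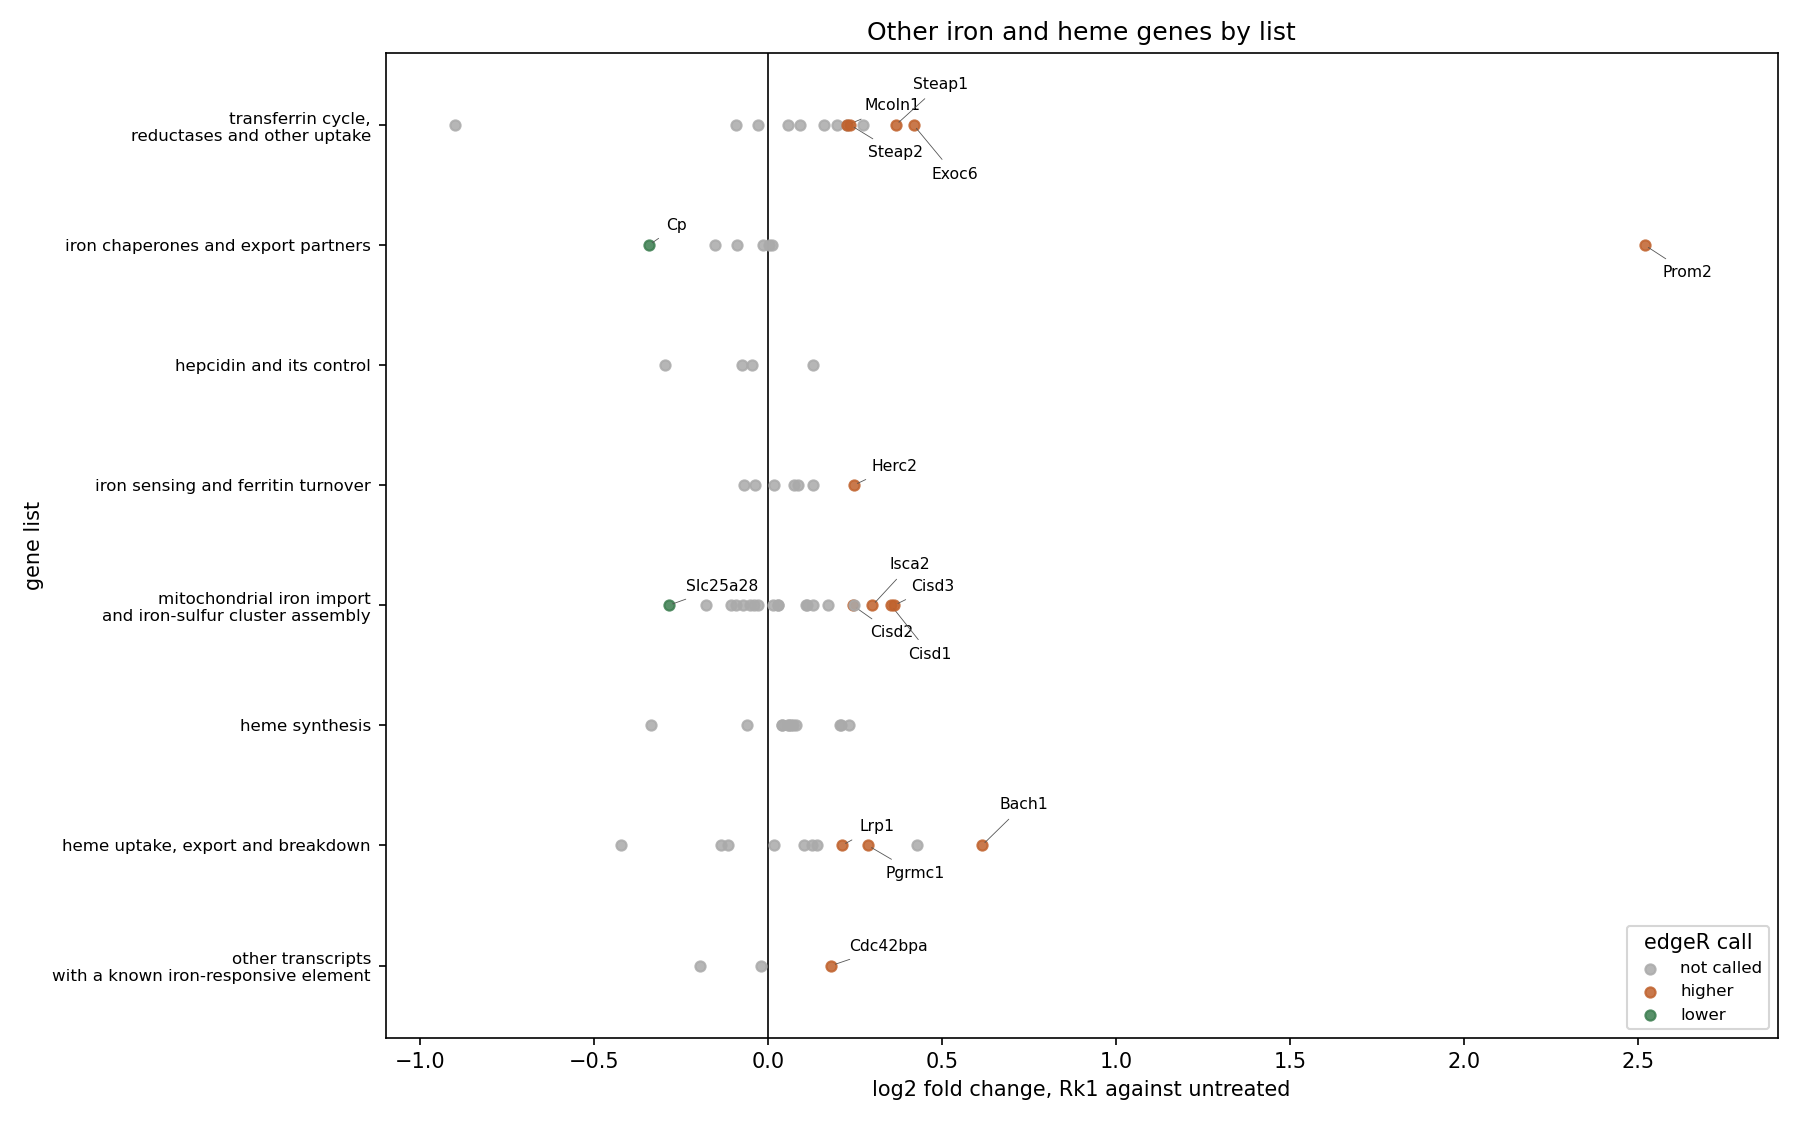
Log2 fold change of Rk1 against untreated (horizontal axis) for the 77 tested genes of 8 iron and heme lists, 1 point per gene, coloured by edgeR's call, with called genes named. Most points lie within 0.5 of 0, and Prom2 at 2.52 rests on 14 counts or fewer in each library.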

How the data were processed

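Per the labels' protocols, Trizol RNA was made into cDNA libraries with a VAHTS kit. Per the submitters' processing notes the tools were HISAT2 and HTSeq. Their versions, the strand setting and the handling of multiply matching reads were not stated per the labels or notes used here. A table of raw counts was deposited per Ensembl gene, with exon lengths, symbols and Rnor_6.0 positions, per the file headers. Promoter windows and neighbours came from RefSeq (GRCr8).

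Genes were filtered by filterByExpr (minimum count 10, minimum total 15), scaled by TMM and tested with edgeR 4.0.16 (quasi-likelihood, two-sided, group only, Benjamini-Hochberg over 12316 genes, threshold 0.05). The SE is the log2 fold change over the square root of F, and 95% intervals use the test's degrees of freedom. Within each group the 2 libraries differed beyond counting noise (chi-square over degrees of freedom 4.47 and 4.52). Floors of 3 counts cover counting error only. The fit was tested on simulated counts with known changes, in genes with a mean of at least 100 counts and the same spread for all genes. It recovered 26% of 1.25-fold, 92% of 1.5-fold and 100% of 2-fold changes. A gene that did not pass may therefore still have changed by a small factor.

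The members and lists were chosen with earlier results of these data known. Text names every member, every light chain locus, and per list the 3 smallest adjusted p and all called genes. Pcbp1 was matched by its description, and Fdx1l and Pecam1 were among the listed genes not matched. Some listed genes are not reported here. Genes such as Steap3, Hmox2, Pcbp1, Pcbp2, Blvra, Blvrb and Hamp were named after their values were seen. Alternatives were DESeq2 1.42.0, limma-voom (limma 3.58.1), robust dispersions, other scalings and filters, a stricter threshold, a replicate block, summed light chain loci, and leaving out each library, which takes the spread of the remaining single library from the other group.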

Additional observations from a re-analysis of the deposited data

How the results depend on the processing

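Hmox1, Ftl1 and Tfrc kept their call and direction in all 13 alternatives fitted for single genes, over 0.88 to 1.08, 0.82 to 0.97 and 0.25 to 0.43, and with light chain loci summed Ftl1 became 1.08. Aco1 kept its call in 3 of 13 and was lost by DESeq2 (0.17), limma-voom (0.17), RLE (0.17) and upper-quartile scaling (0.14), without a count filter (0.17), with at least 1 CPM in 2 libraries (0.16), and without any 1 library (0.13 to 0.21). Fth1 was lost without a count filter (0.14, adjusted p = 0.059), and leaving out libraries gave 0.13 to 0.14, with the losses named above. Slc39a14 ranged over 0.22 to 0.35 without single libraries. Genes called numbered 2711, against 1690 by DESeq2, 1226 at an adjusted p under 0.01, and 1710 to 2046 without single libraries. Genes called of the 10 fell from 6 to 3 at an adjusted p under 0.01 and to 3 to 5 without single libraries. Other iron genes called fell from 16 to 7 at that threshold to 11 by DESeq2, and to 9 to 13 without single libraries. The cause of these changes was not tested, beyond the fewer samples or stricter threshold by construction. Titles share replicate numbers, but same-numbered libraries hardly deviated together (correlation 0.059 over genes). With a replicate block 3214 genes, 6 of the 10 and 19 other iron genes were called, Alas1 and Glrx3 among the last.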
